A study of Mus musculus with 2 samples.

Results

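The Ube2 genes encode the E2 ubiquitin-conjugating enzymes, and 37 of the 21474 protein-coding mouse genes carry a symbol that starts with Ube2, the rule by which they were taken. The rule reads the name alone, so it includes Ube2cbp, named as an E2-binding protein, and leaves out enzymes with the same fold under other names, such as Cdc34. Poly(A) RNA had been sequenced in paired-end mode from G1E-ER4 cells, an immortalized mouse erythroid line that lacks functional Gata1 of its own and carries GATA1, a transcription factor of red cell development, fused to the ligand-binding domain of the estrogen receptor. All cells analysed had received 17beta-estradiol at 10 nM over 30 h, which activates the fusion protein and starts erythroid differentiation. The 2 libraries are labelled as biological replicates 1 and 2 of this 1 group, both under the same biosample record, so separate cultures are not shown. The p-values set the difference between these libraries against counting error alone and take in no replicate spread. No untreated library was analysed here, and the values therefore give levels, ratios and transcript usage in this state but no effect of estradiol.

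Ubiquitin is passed from an E1 activating enzyme to the active-site cysteine of an E2, and an E3 ligase then brings the charged E2 to a protein. The E2 often decides which kind of ubiquitin chain is built, and a few E2 enzymes carry the related modifiers SUMO, NEDD8 or ISG15 instead of ubiquitin. In erythroid cells the system is known for clearing organelles, ribosomes and unneeded proteins as cells mature, with UBE2O acting on ribosomal proteins and UBE2H working with the CTLH ligase.

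Replicate 1 held 73681318 expected counts over all genes, and replicate 2 held 56056404. A gene with 0 counts is limited to 3 counts, or 0.0407 and 0.0535 CPM, counts scaled to the library total. All 8 erythroid markers reached 1 TPM in both libraries, with Gata1 at 2036 and 1608 TPM, although these reads do not separate the introduced sequence from the gene's own locus. The 4 mast cell markers were at 0 counts, none of 6 myeloid and none of 4 lymphoid markers reached 1 TPM in both libraries, and 2 of 4 megakaryocyte markers did. The summed level of the myeloid markers was 0.320 TPM in replicate 1 and 10.9 TPM in replicate 2. For lymphoid markers the sums were 0.400 and 0.0700 TPM, and for megakaryocyte markers 20.6 and 15.9 TPM. Levels are given in TPM, a unit of abundance corrected for transcript length that has the same total in each library.

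Most of the family was expressed, and a few enzymes held most of its RNA. At least 1 TPM in both libraries was reached by 27 of 37 members, where 35.3% of all protein-coding genes did so, and 11 members reached 100 TPM in both, against 4.32% of protein-coding genes. The median member stood at 31.7 TPM, and the median protein-coding gene at 0.0150 TPM. Among genes of at least 1 TPM in both libraries the medians were 87.2 TPM for 27 members and 15.3 TPM for 7570 genes. Together the members took 0.348% of the TPM in replicate 1 and 0.380% in replicate 2. Ube2s alone held 27.3% of the family's TPM, the 5 highest members 60.9% and the 10 highest 80.3% (means of both libraries). The genes lie on 16 chromosomes.

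**Figure D1:**
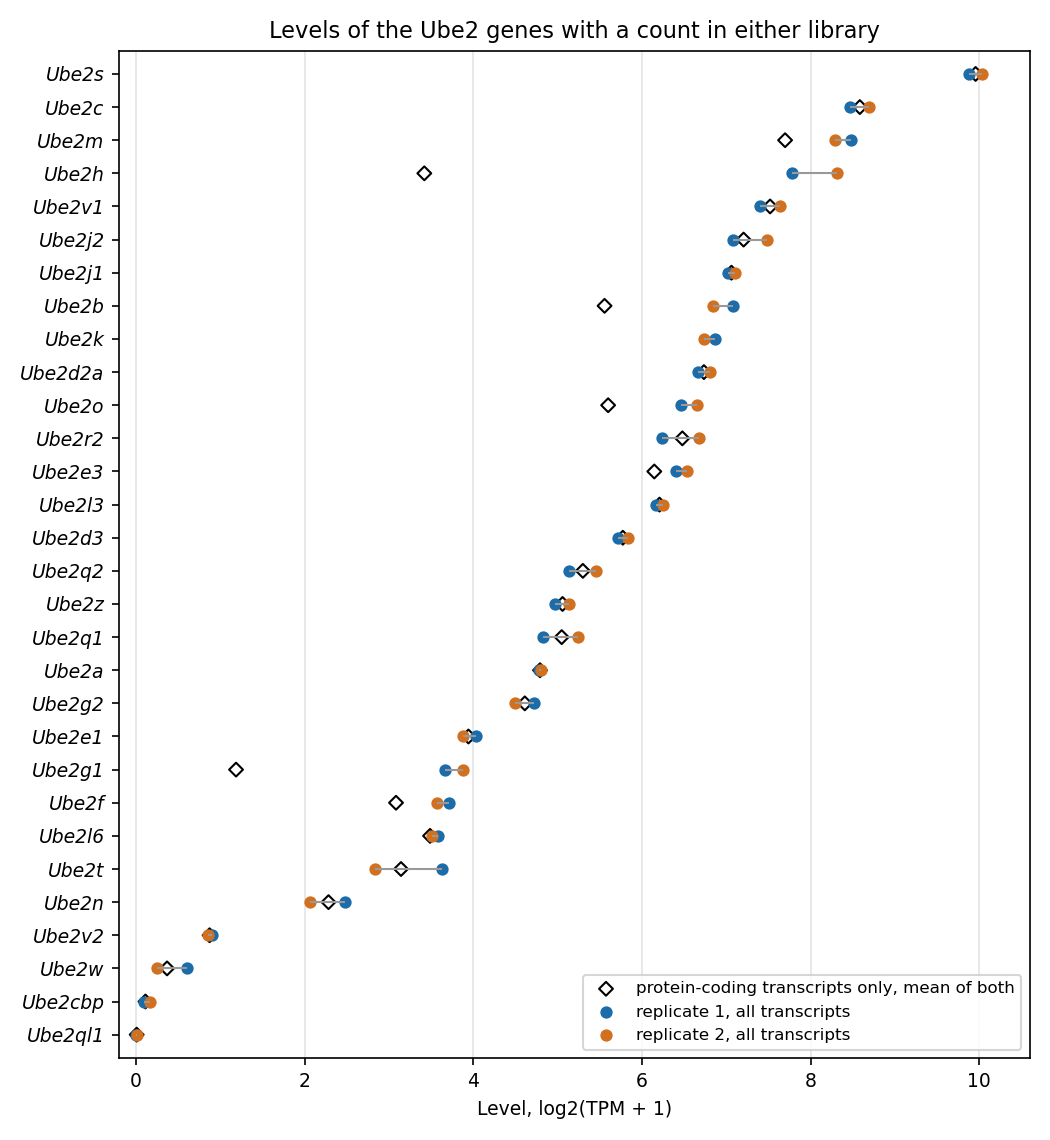
Level of the Ube2 genes described here with a count in either library, as log2(TPM + 1), for replicate 1 (blue) and replicate 2 (orange), and as open diamonds the mean over protein-coding transcripts alone, which is not given for Ube2k. Ube2s stands highest at 939 and 1047 TPM, and the diamonds of Ube2h, Ube2g1, Ube2b and Ube2o lie far to the left of their circles.

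By the mean of both libraries, the 2 highest members both serve the anaphase-promoting complex, the E3 ligase that drives cells out of mitosis. Ube2s (ENSMUSG00000060860.7, chromosome 7, 4794546 to 4812590, minus strand), which extends the K11-linked chains on its substrates, stood at 939 TPM in replicate 1 and 1047 TPM in replicate 2. Ube2c (ENSMUSG00000001403.9, chromosome 2, 164769898 to 164778822, plus strand), which starts those chains, stood at 353 and 413 TPM. In replicate 1 Ube2m, at 356 TPM, stood above Ube2c, and the libraries of these 2 genes overlapped. Ube2c was lower than Ube2s in both libraries, by a log2 ratio of -1.41 in replicate 1 and -1.34 in replicate 2, and this ratio was -1.38 after adjustment for GC content. Each gene used 1 transcript almost alone, the only one listed for Ube2s and, for Ube2c, a 967-base protein-coding transcript with 99.9% of its TPM in both libraries. The gene span of Ube2s meets that of Rpl28, a ribosomal protein gene on the opposite strand. In the GENCODE M21 model of the Ube2s transcript 0 bases lie in Rpl28 exons. That model has 1238 bases, and the transcript as quantified has 858.

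The promoter window of Ube2c is shown for its repeated matches to 1 motif. It is a RefSeq sequence of build GRCm38.p6, from 250 bases before to 50 bases after the start annotated by RefSeq, 5′ to 3′ on the strand of the gene. That start lies 31 bases downstream of the start of the quantified transcript. Capitals mark matches, on either strand, to 6 motifs. These are the GATA elements AGATAA, with A as first base, and TGATAA, with T as first base. The others are the CACC box CCACACCC, the CCAAT box, the cell cycle homology region TTTGAA and its variant TTTAAA.
Ube2c, chr2:164769679-164769978, plus strand: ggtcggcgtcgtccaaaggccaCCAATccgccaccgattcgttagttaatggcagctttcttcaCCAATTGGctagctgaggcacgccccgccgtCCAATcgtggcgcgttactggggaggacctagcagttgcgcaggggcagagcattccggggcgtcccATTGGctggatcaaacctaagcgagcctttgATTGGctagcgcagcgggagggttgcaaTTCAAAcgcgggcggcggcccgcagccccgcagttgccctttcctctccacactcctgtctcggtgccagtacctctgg

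In the Ube2c window, 6 CCAAT matches were found, of which 2 overlap each other as one palindrome, and a TTTGAA match on the other strand lay at position -29 from the start. At least 6 CCAAT matches were held by 26 of 32851 windows in the table, or 0.0791%. The limit of 6 is the number found in this window, itself shown for its CCAAT matches, so the share describes it and tests nothing. At least 1 such match stood in 37.4% of all windows and in 9 of the 41 windows of members. TTTGAA was in 17.9% of all windows and 4 of 41. These are letter matches, and no binding was measured.

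The 3 enzymes known from erythroid work, Ube2h, Ube2o and Ube2l6, spanned a wide range. Ube2h (ENSMUSG00000039159.12, chromosome 6, 30211289 to 30304539, minus strand), the E2 of the CTLH ligase, stood at 219 TPM in replicate 1 and 318 TPM in replicate 2, at rank 4 in the family. Ube2o (ENSMUSG00000020802.8, chromosome 11, 116537740 to 116581447, minus strand), a large enzyme that joins E2 and E3 activity, had 87.5 and 100 TPM. Ube2l6 (ENSMUSG00000027078.10, chromosome 2, 84798828 to 84810335, plus strand), which carries ISG15 and also takes ubiquitin, had 10.9 and 10.4 TPM from 1120 and 815 counts. On this scale Ube2h was higher than Ube2o, and Ube2o higher than Ube2l6, in both libraries. The order of Ube2h and Ube2o is reversed on both other scales given below, and on protein-coding transcripts alone Ube2h, at 9.70 TPM, stood beside Ube2l6, at 10.2 TPM.

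The level of Ube2h depended on a short transcript. ENSMUST00000148744, annotated as a processed transcript of 803 bases and 5 exons without a coding sequence, took 95.6% of the gene's TPM in replicate 1 and 96.9% in replicate 2. The protein-coding transcript ENSMUST00000102993, of 4657 bases, had 9.64 and 9.63 TPM. In counts, which do not divide by length, the short transcript held 10098 and 11125 and the protein-coding one 3234 and 2470. All 803 bases of the short transcript lie within exons of the protein-coding one, 379 of them over its 549-base coding sequence, and it starts 11 bases downstream. Its GC content was 63.6%, against 49.6% for the protein-coding transcript. With all counts of the gene taken at the length of the longest protein-coding transcript, a choice made after the values were seen, Ube2h had 46.4 ± 9.39 TPM (SD, n = 2) in place of 268 ± 70.0. With protein-coding transcripts alone it had 9.70 ± 0.0778 TPM. With all members treated in the same way, its rank was 13 of 37 on the first scale and 22 on the second, which leaves out Ube2k and so has 36 members. The first scale also takes some other members at the length of a transcript that held little of their TPM. On it Ube2k fell from a mean of 111 to 27.2 TPM and Ube2j2 from 156 to 33.6 TPM, both below Ube2h.

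The windows at the 2 annotated starts of Ube2h are shown because counts were assigned to transcripts of only 1 of them. Both are on the minus strand and marked as above.
Ube2h, upstream start, chr6:30304490-30304789: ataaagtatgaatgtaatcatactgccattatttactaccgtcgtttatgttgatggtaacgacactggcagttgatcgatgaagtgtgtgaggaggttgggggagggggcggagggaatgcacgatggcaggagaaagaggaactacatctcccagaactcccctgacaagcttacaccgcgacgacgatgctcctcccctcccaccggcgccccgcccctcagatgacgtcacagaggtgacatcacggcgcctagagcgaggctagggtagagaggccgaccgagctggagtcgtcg
Ube2h, downstream start, chr6:30243754-30244053: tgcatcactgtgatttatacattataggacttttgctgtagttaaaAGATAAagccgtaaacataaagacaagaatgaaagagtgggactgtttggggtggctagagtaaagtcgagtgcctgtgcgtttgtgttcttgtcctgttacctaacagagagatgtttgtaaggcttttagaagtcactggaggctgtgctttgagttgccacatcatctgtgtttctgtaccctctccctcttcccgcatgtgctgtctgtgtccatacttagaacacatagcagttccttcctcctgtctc

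The upstream window, which serves both transcripts described above, had no match to the 6 motifs. In the downstream window an AGATAA match lay at position -204, a motif found in 11.2% of all windows and in 1 of 41 member windows. The other GATA element was in 9.05% of all windows and in 0 of 41, and the CACC box in 3.56% and 1 of 41. ENSMUST00000128141, the transcript that begins at the downstream start, had 0 counts in both libraries.

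In TPM, Ube2o was split about evenly between its annotated forms. The 5205-base protein-coding transcript ENSMUST00000082152 took 51.5% of the gene's TPM in replicate 1 and 49.9% in replicate 2, and the processed transcript ENSMUST00000134102, of 3550 bases, took 48.5% and 50.1%. In counts the protein-coding transcript held 16965 and 14368, and the processed one 10730 and 9684. The shorter form begins 37430 bases downstream, shares the 3′ end, and lies wholly within exons of the longer one. It covers 2243 of the 3864 coding bases. At the length of the protein-coding transcript Ube2o had 78.5 ± 7.03 TPM, and on protein-coding transcripts alone 47.5 ± 3.42 TPM (SD, n = 2). Ube2l6 was almost wholly on its 1560-base protein-coding transcript, with 93.7% and 96.5% of its TPM.

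Across the family, few genes were led by a non-coding form in both libraries. Of 21 members that had 2 or more listed transcripts and 10 TPM in each library, 19 had the same leading transcript in both libraries, which also held for 90.6% of 3404 such protein-coding genes. In 3 members the shared leader was of a non-coding type, against 26.5% of those genes. Beside Ube2h these were Ube2b and Ube2g1. The retained-intron transcript ENSMUST00000126046 took 90.8% and 89.2% of Ube2g1, and 648 of its 1469 bases lie outside the exons of the longest protein-coding transcript. In Ube2b, a RAD6 enzyme that ubiquitinates histone H2B and PCNA, the 516-base processed transcript ENSMUST00000124699 took 64.7% and 59.0%, with 248 bases outside those exons. In counts it held 2329 and 1327, against 1519 and 1587 for the protein-coding transcript ENSMUST00000020657. Protein-coding transcripts together held 52.9% and 62.6% of the Ube2b counts. By share of TPM, the leaders of Ube2m and Ube2o differed between the libraries. Ube2m was led by a retained intron at 41.8% in replicate 1 and by a protein-coding transcript at 46.4% in replicate 2. In counts that protein-coding transcript led in both libraries, with 11193 and 10799 against 4940 and 2573 for the retained intron. Ube2o was led by its protein-coding transcript at 51.5% in replicate 1 and by its processed transcript at 50.1% in replicate 2. In counts its protein-coding transcript led in both libraries. The leader of Ube2k has no known type. Ube2j2 was led in both by a 395-base protein-coding transcript, at 45.0% and 53.6% of TPM. In counts that transcript held 1077 and 1223, fewer than the 3220 and 2788 of the 1309-base protein-coding transcript ENSMUST00000103175. Such shares are estimates divided among overlapping models, and the reads that join exons were not seen here.

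**Figure D2:**
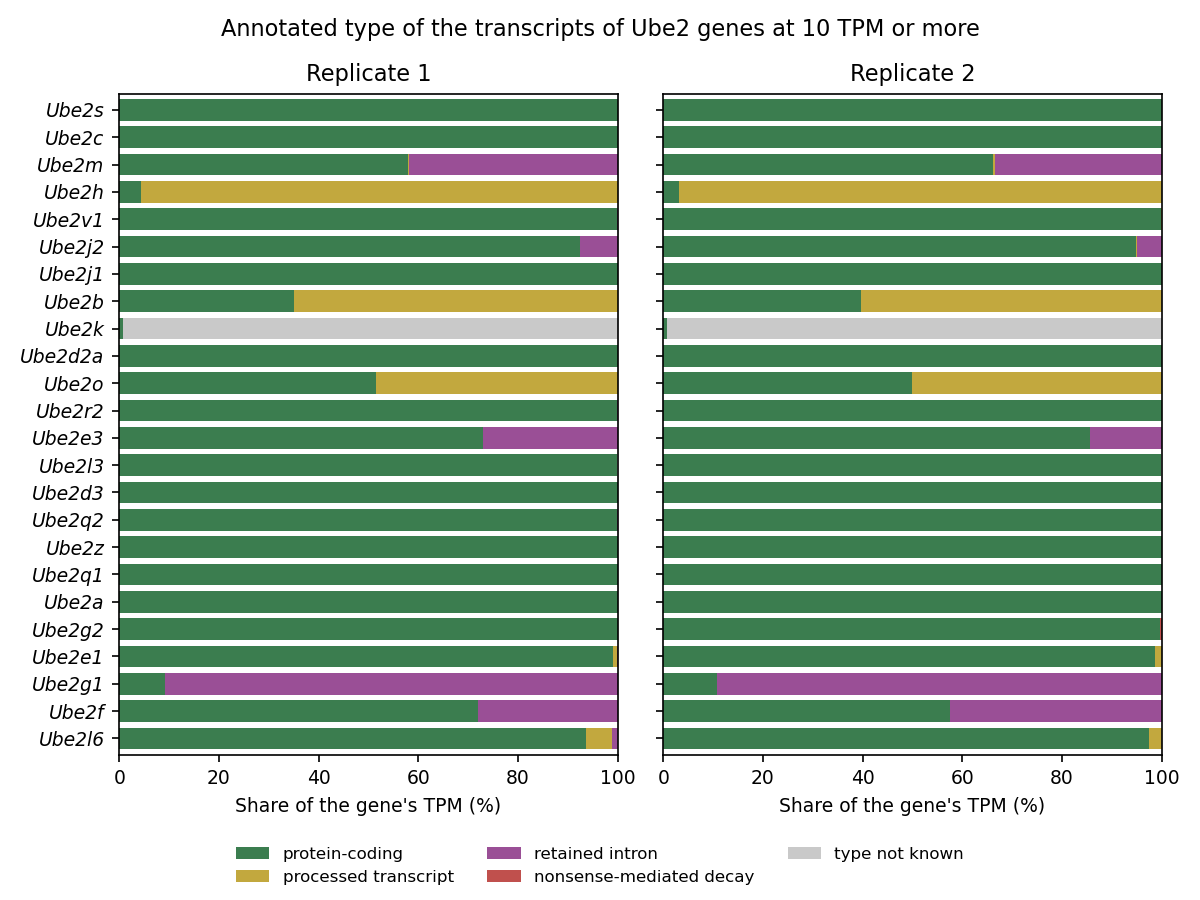
Share of each gene's TPM, in percent, by annotated transcript type for the Ube2 genes described here with at least 10 TPM in both libraries, with replicate 1 on the left and replicate 2 on the right. Most bars are wholly protein-coding, while Ube2h and Ube2g1 are mostly processed transcript and retained intron in both libraries, and the main Ube2k transcripts have no known type.

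The enzymes for NEDD8 were both detected but unequal. Ube2m (ENSMUSG00000005575.11, chromosome 7, 13035120 to 13038275, minus strand), which loads NEDD8 onto most cullins, had 356 and 313 TPM. Ube2f, which serves the cullin-5 branch with RNF7, had 12.1 and 10.9 TPM, so Ube2m was higher by a log2 ratio of 4.77 in replicate 1 and 4.73 in replicate 2 (3.26 after GC adjustment).

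The ISG15 pathway of Ube2l6 was present only in part. Uba7, its E1, had 108 and 102 TPM, while Isg15 itself had 0 and 4 counts, the ligase Herc6 1 and 0, and the ISG15 protease Usp18 19 and 8. Ube2l3, the close relative of Ube2l6 that works with RBR and HECT ligases, had 70.9 and 75.1 TPM. Ube2l6 was lower than Ube2l3 by log2 ratios of -2.59 and -2.74, which became -3.60 after GC adjustment.

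Enzymes of DNA damage signalling and K63-linked chains differed widely in level. Ube2v1, a partner subunit without an active cysteine, had 168 and 198 TPM, and its relative Ube2v2 had 0.87 and 0.80 TPM, a log2 ratio of 6.49 and 6.79 (5.09 after GC adjustment). Ube2n, the active enzyme that pairs with either of them, had 4.56 and 3.17 TPM, all on 1 protein-coding transcript, from 1256 and 667 counts. Ube2b had 134 and 114 TPM and its near copy Ube2a 26.5 and 26.8 TPM, so that Ube2a was lower by log2 ratios of -2.29 and -2.05, but by -0.77 on protein-coding transcripts alone. Ube2t, the Fanconi anemia E2, had 11.4 TPM in replicate 1 and 6.12 in replicate 2. Fancl, the ligase that Ube2t serves, had 38 and 24 counts. Reads shared by near copies such as Ube2a and Ube2b are divided by estimation.

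For K48-linked chains and degradation at the endoplasmic reticulum, all 6 members reached 1 TPM in both libraries. Ube2j2 had 134 and 179 TPM and Ube2j1, its relative in the endoplasmic reticulum membrane, 129 and 136 TPM. Their log2 ratio of -0.05 in replicate 1 and -0.39 in replicate 2 changed sign to 0.61 after GC adjustment, and at the longest protein-coding length Ube2j2 fell to 33.6 ± 4.56 TPM, so their order is not settled. Ube2k, which builds K48 chains, had 116 and 106 TPM. Ube2r2 had 74.8 and 102 TPM, below its relative Cdc34 at 277 and 325 TPM, with log2 ratios of -1.88 and -1.66, a difference that was -0.01 after GC adjustment. Ube2g2 and Ube2g1, enzymes of endoplasmic reticulum quality control and of K48 chains, had 25.4 and 21.6 TPM and 11.7 and 13.7 TPM. The Ube2g1 to Ube2g2 log2 ratio of -1.05 and -0.62 turned to 0.52 after GC adjustment and was -3.43 on protein-coding transcripts.

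The broad-acting UBE2D and UBE2E enzymes, which start chains with many ligases, were grouped with Ube2w. Of the 10 genes in this group, 4 reached 1 TPM in both libraries. Ube2d2a had 100 and 111 TPM and Ube2d3 51.4 and 56.0 TPM, with a nearly equal log2 ratio of -0.95 and -0.97 in the libraries. Ube2d1 had 0 counts in both. Ube2e3 had 84.0 and 91.7 TPM and Ube2e1 15.3 and 13.7 TPM, while Ube2e2 had 0 counts. Ube2w, which modifies the N-terminus of proteins, had 0.520 and 0.190 TPM from 64 and 22 counts.

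The 6 members without any count in either library were Ube2d1, Ube2d2b, Ube2dnl1, Ube2dnl2, Ube2e2 and Ube2u, which places each at no more than 0.0407 and 0.0535 CPM. Ube2ql1 had 0 and 1 counts and Ube2cbp 8 and 10. Of the remaining enzymes, Ube2q2 had 34.1 and 42.8 TPM, Ube2q1 27.4 and 36.8 TPM, and Ube2z, which takes ubiquitin or FAT10 from UBA6, 30.4 and 34.3 TPM. Its E1 Uba6 had 0.210 and 0.150 TPM. Ordered by mean level, 15 of the 26 neighbouring pairs of members with at least 1 TPM overlapped between libraries, so the order of close neighbours is within the replicate spread.

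**Figure D3:**
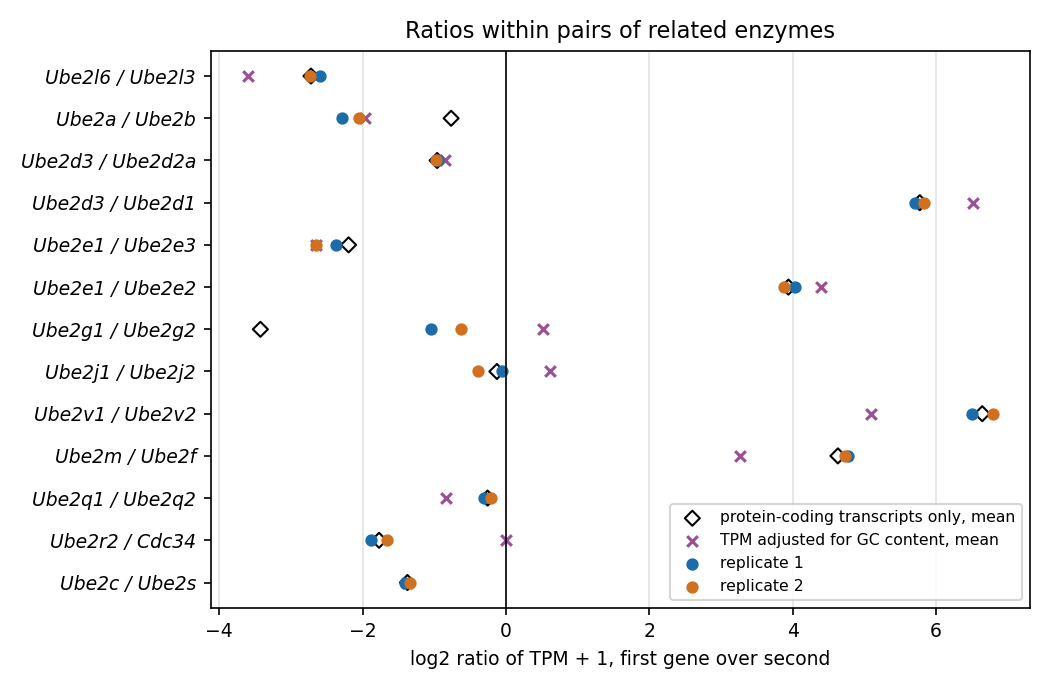
Log2 ratio of TPM + 1 within 13 pairs of related enzymes, first gene over second, for replicate 1 (blue) and replicate 2 (orange), with the mean over protein-coding transcripts (diamonds) and after GC adjustment (crosses). Both libraries lie on the same side of 0 in every pair, and the crosses fall on the other side of 0 for Ube2g1 over Ube2g2 and Ube2j1 over Ube2j2.

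Level and base composition went together in the family. GC content of a gene is here the plain mean over all its annotated transcripts, whichever of them held the counts. For Ube2h it was 53.8%, against 63.6% for the leading transcript. For Ube2a it was 49.1%, against 42.1% for the only quantified transcript. Across the 27 members with at least 1 TPM in both libraries, log2(TPM + 1) and this GC content had a Pearson r of 0.48 and a Spearman rho of 0.51. These genes share both libraries and are not independent replicates. The same r over 7570 protein-coding genes was 0.30. The part of GC content in the levels was not tested beyond the adjustment, which left 29 members at 1 TPM or more.

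Between the 2 libraries, more members were higher in replicate 2 than lower. By an exact two-sided binomial test on rounded expected counts after TMM scaling, with Benjamini-Hochberg adjustment over all 10445 genes of at least 20 summed counts, 16 of 29 members tested were higher in replicate 2 and 7 lower. Over all genes, 30.0% were higher and 29.2% lower, so the libraries differ by more than counting noise. The test compares these libraries, not conditions, and in bulk RNA fewer cells of a type and less RNA per cell cannot be told apart. Scaled by library totals, the split was 16 to 9 for members and 2423 to 3776 for all genes, in place of 3136 to 3047.

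The members that were higher differed by little. Ube2r2 was higher by a log2 difference of 0.52, Ube2q1 by 0.50, Ube2h by 0.49 (95% interval 0.46 to 0.53) and Ube2q2 by 0.44. Only 1 member passed an absolute log2 difference of 1, 3.45% of those tested, beside 4.62% of all genes. That member was Ube2w, at -1.06 (95% interval -1.85 to -0.36, adjusted p = 0.0043 by the exact binomial test), from 64 and 22 counts. With the expected ratio taken within bins of GC content its difference was -0.82, which does not reach 1 in size. Ube2t was next at -0.84 (adjusted p = 7.81e-24 by the same exact test), with 1004 and 406 counts. Also lower in replicate 2 were Ube2v2 at -0.46, Ube2n at -0.45, Ube2f at -0.32 and Ube2g2 at -0.17, besides 1 that is not described here. Ube2m, Ube2b, Ube2k, Ube2a, Ube2e1 and Ube2l6 did not pass. The median absolute log2 difference was 0.26 in the family and 0.24 over all genes.

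GC content moved weakly with the library difference over all genes. Over protein-coding genes of at least 1 TPM the log2 difference and GC content had a Pearson r of 0.18 and a Spearman rho of 0.19, and over the 27 members an r of 0.16 and a rho of 0.065. With the expected ratio taken within bins of GC content, 18 members were higher and 7 lower. Ube2v2 then no longer passed, Ube2a and Ube2k passed as higher, and Ube2m passed as lower. The summed myeloid markers, at 0.320 and 10.9 TPM, also differed between the libraries. Their part in the member differences was not tested.

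**Figure D4:**
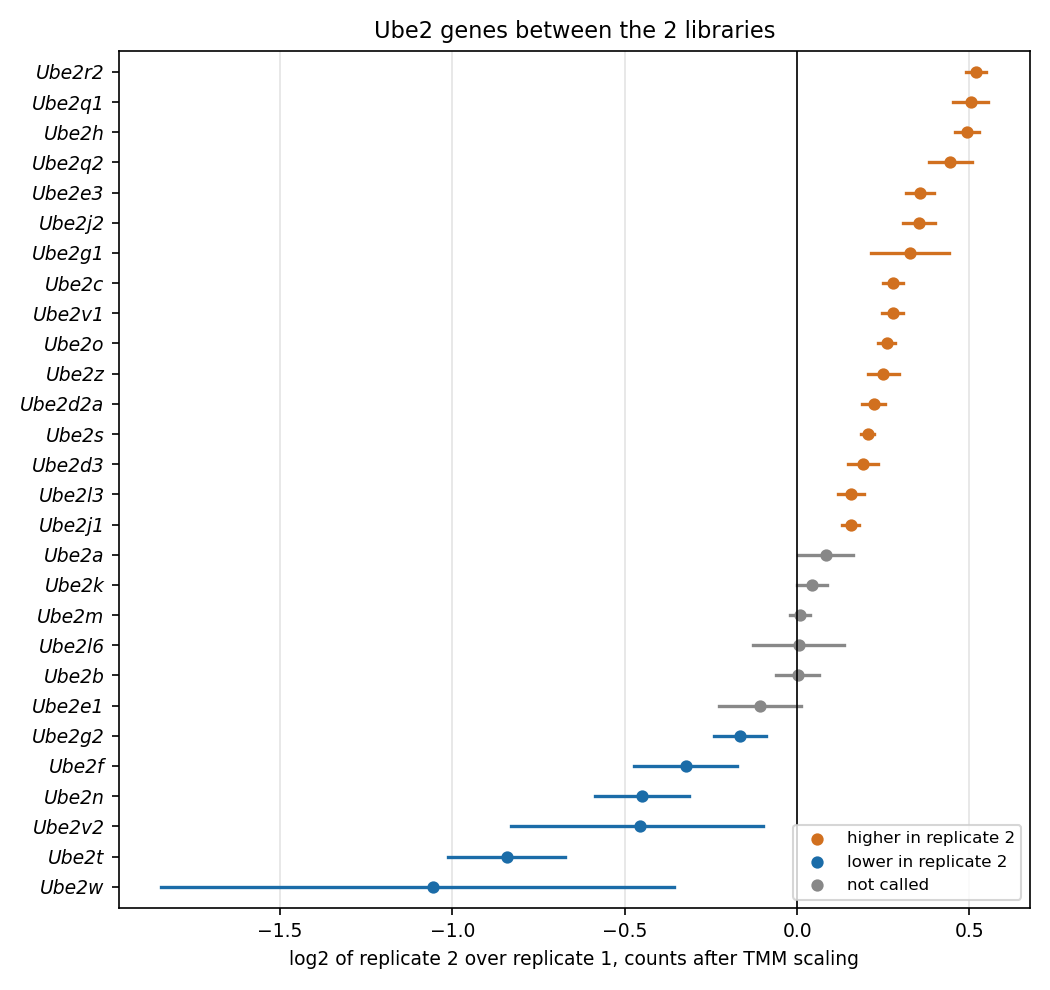
Log2 of replicate 2 over replicate 1 for the Ube2 genes tested and described here, from counts after TMM scaling, with exact 95% intervals that cover counting error only. Orange points are the 16 members that were higher in replicate 2, blue points 6 of the 7 that were lower, and grey points the 6 that did not pass.

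The genes that feed the family were mostly expressed. The counts below stand beside 35.3% of protein-coding genes at 1 TPM in both libraries, and 30.0% higher and 29.2% lower of all genes tested. Of 10 E1 genes, 8 reached 1 TPM in both libraries, led by the main ubiquitin E1 Uba1 at 132 and 210 TPM. Uba1 counts were 28273 and 22033, a log2 difference of 0.10 after TMM scaling, smaller than that of its TPM. Of the 10 genes, 3 were higher and 2 lower in replicate 2 (2 and 4 when scaled by library totals). Sae1, of the SUMO E1, had 41.4 and 39.4 TPM. All 4 ubiquitin genes reached 1 TPM in both libraries, with Ubb at 1236 and 1239 TPM and Rps27a lowest at 24.6 and 16.8 TPM. Ubb was higher in replicate 2 and Rps27a lower. Of 7 ubiquitin-like modifier genes 6 did, and 5 were lower in replicate 2 and 1 higher. Sumo2 had 188 and 96.1 TPM and Nedd8 116 and 68.7 TPM. Of 8 other genes with the E2 fold, 5 reached 1 TPM, led by Cdc34 and by Tsg101, an inactive relative that sorts membrane cargo, at 193 and 118 TPM. Ufc1, the E2 for UFM1, had 32.3 and 23.4 TPM, and Atg10, an autophagy enzyme, was lowest at 0.14 and 0.12 TPM.

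Most ligase partners were expressed. All 11 CTLH genes of the Ube2h ligase reached 1 TPM in both libraries, with Ranbp10 at 157 and 173 TPM, Mkln1 at 75.8 and 42.7 TPM and Wdr26 at 52.2 and 60.7 TPM, and Armc8 lowest at 3.38 and 3.15 TPM. Of these, 6 were higher and 4 lower in replicate 2, where 30.0% and 29.2% of all genes were. For the anaphase-promoting complex 15 of 16 genes did so, with the activator Cdc20 at 189 and 174 TPM, Anapc11 at 193 and 147 TPM, and Anapc10 lowest at 0.150 and 0.110 TPM. None of its 16 genes was higher in replicate 2 and 9 were lower, beside 30.0% and 29.2% of all genes. Ube2c and Ube2s were higher, and the difference between them and the complex was not tested. Scaled by library totals 10 of its genes were lower, within GC bins 7, and 0 were higher under either.

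In the NEDD8 pathway 7 of 10 genes reached 1 TPM in both libraries, with 2 higher and 7 lower in replicate 2, beside 30.0% and 29.2% of all genes. Dcun1d5, a helper of neddylation, had the highest mean at 99.4 and 139 TPM, below Nedd8 in replicate 1, Rnf7, the ring subunit beside Ube2f, had 27.7 and 15.4 TPM, Rbx1 had 8.30 and 3.63 TPM, and Dcun1d1 was lowest at 0.510 and 0.270 TPM. In the SUMO pathway 9 of 10 did, with 1 higher and 7 lower against the same shares, and the ligase Pias4 had 84.9 and 90.7 TPM. Pias1 was lowest there at 1.17 and 0.79 TPM. In the ligases of Ube2a, Ube2b and Ube2n 10 of 11 did, with 3 higher and 4 lower (1 and 4 when scaled by library totals). Rnf20 and Rnf40, which together ubiquitinate H2B with the RAD6 enzymes, had 40.6 and 43.2 TPM and 42.7 and 37.5 TPM.

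**Figure D5:**
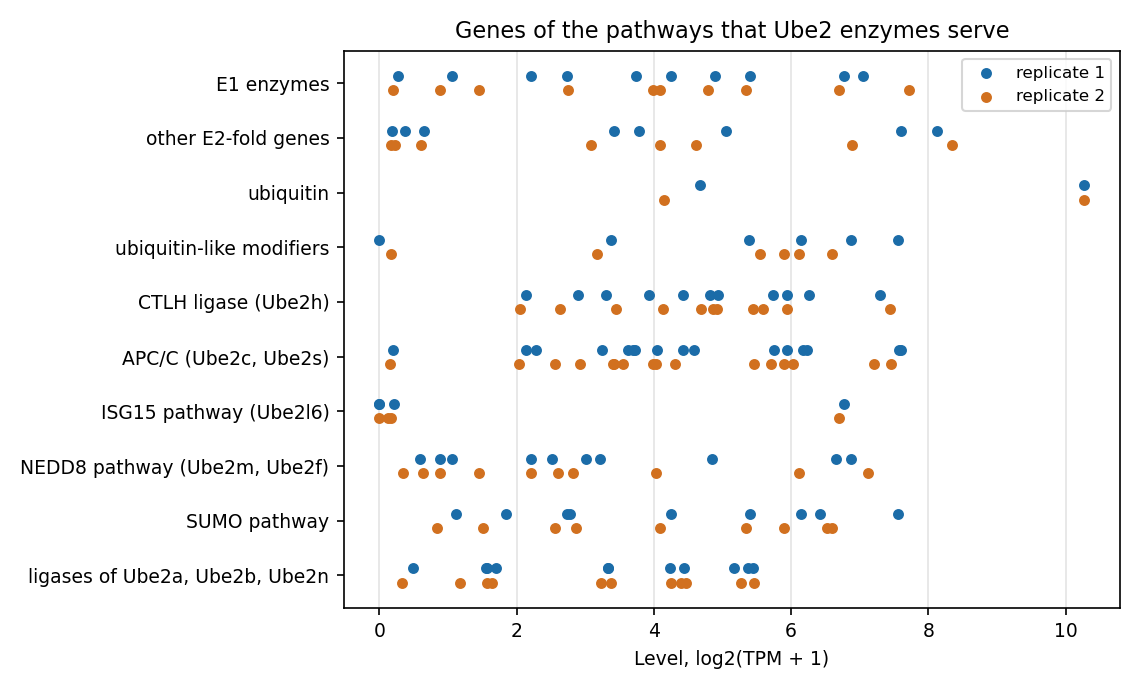
Level of the genes described here from the 10 partner lists, as log2(TPM + 1), for replicate 1 (blue, upper row) and replicate 2 (orange, lower row), with the Ube2 enzymes that each list serves in brackets. In the ISG15 list 1 gene, Uba7, stands at 108 and 102 TPM and the other 3 lie near 0.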

How the data were processed

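Poly(A) RNA of 2 libraries of 1 group was analysed. Per the deposited description files, the authors' values refer to mm10 and GENCODE M4. The sources used here do not name the aligner, the quantifier or the strand handling. Per the file headers, the deposited expected counts are estimated and need not be whole, the deposited TPM are counts per effective length scaled to 1 sum, and the deposited FPKM are fragments per length and library size. Transcript shares are the percent of gene TPM that the authors deposited for each transcript.

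GENCODE M21, which uses the same build, gave names, types, coordinates and GC content and matched 42462 of 43346 gene rows. 26248 rows named by numbers and 97 spike-in rows were left out. Members are protein-coding symbols starting with Ube2, and 4 non-coding rows of such names were left out. Members, lists, motifs and pairs were chosen with earlier results of these data known. The rule for named genes took members of at least 1 mean TPM or with 0 counts, and the 3 highest, the lowest and called genes of each list, of which some are named. Some members and a few listed genes are counted but not otherwise reported here. Ube2w, Ube2v2, Ube2ql1 and Ube2cbp were named after their values were seen.

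Ratios of levels are log2 of TPM + 1. Levels, pairs and shares have no test. Expected counts were rounded and tested per gene with a two-sided exact binomial test, the expected ratio being that of TMM-scaled totals (edgeR 4.0.16, R 4.3.3). Genes needed 20 summed counts, and p-values were adjusted by Benjamini-Hochberg over all of them at 0.05. The GC content of a gene was the mean over all its M21 transcripts, not weighted by their use. GC adjustment removed the trend of log2 level over 20 bins of it. Coding shares were not computed where over 10% of TPM lay on transcripts absent from M21. Promoter windows exist for 30 members. Alternatives were other scalings (DESeq2 1.42.0 size factors), thresholds, pseudocounts, value types, GC bins and leaving out a replicate. Steps were tested on simulated data. The simulated counts varied by counting error alone, so they cannot show how the binomial calls behave with the larger differences between these libraries. Intervals are exact at 95% and, like the limit of 3 counts, cover counting error only. Python 3.11.15, numpy 2.4.6, scipy 1.17.1 and pandas 2.3.3 were used.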

Additional observations from a re-analysis of the deposited data

How the results depend on the processing

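No paired analysis was possible because there is only 1 group. The number of members at 1 TPM stayed within 1.5 times under every setting run. The direction of all 13 pairs held when either replicate was left out and with FPKM, posterior means or another pseudocount, but not under GC adjustment, which reversed Ube2g1 over Ube2g2 (log2 0.52) and Ube2j1 over Ube2j2 (0.61). The median level of 5.03 on the log2(TPM + 1) scale was 5.26 after GC adjustment and 6.46 over members of at least 1 TPM alone. The family's share of TPM, 0.364%, was 0.504% when globin and mitochondrial genes were left out. With an absolute log2 difference of at least 1 also required, 0 members were called higher and 1 lower. Ube2m, not called at 0.01, was lower at -0.062 under library totals and at -0.059 within GC bins. The length assumed for a gene moved the TPM of 13 of 27 members by over 1 SD.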

Other observations

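Of 4 Ube2-named rows that are not protein-coding, the pseudogene Ube2d-ps (chromosome 11, 5762129 to 5784710, plus strand) had 505 and 381 counts, or 4.05 and 4.08 TPM, and Ube2nl, Ube2d4 and Ube2uos had 0 counts. The transcribed pseudogene stood above Ube2n in replicate 2, at 4.08 against 3.17 TPM, and below it in replicate 1, at 4.05 against 4.56 TPM.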
